A study of Mus musculus with 12 samples.

Results

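The genes described here are 9 members of the intracellular arm of Wnt signaling, namely Ctnnb1, Apc, Axin2, Tcf7, Tcf7l1, Tcf7l2, Lef1, Tle1 and Nkd1. They were chosen by name for their function, and all 9 were found among the 23513 genes of the count tables. Each was followed through 25 clusters of nuclei from the developing mouse cortex, in 11 embryos exposed to saline or ethanol (EtOH).

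Pregnant C57BL/6J mice received saline or EtOH, the latter at 2.5 g/kg as a 25% (v/v) solution in saline, by daily intraperitoneal injection from E8.5 until the day before the cortices were collected, at embryonic day 14 by the labels. Single-nucleus RNA sequencing (snRNAseq) was done with 1 library per embryo. Among the 5 saline embryos, S1-1 and S1-2 were littermates, as were S2-1, S2-2 and S2-4. Among the 6 EtOH embryos, E1-1 and E1-2 shared a dam, and a different dam carried the remaining 4, from E2-1 up to E2-4. Litters S1 and E1 made up batch 1, and litters S2 and E2 batch 2, so each batch held both treatments. Each treatment thus reached 2 dams. Littermates count as independent samples in the tests below, and the p-values reflect how embryos vary, not how dams vary.

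The authors' clusters were used with their names: 5 clusters of radial glial cells (RGC), 2 of intermediate progenitors (IPC), 8 of projection neurons (PN), 7 of interneurons (Int) and 3 other clusters. The 7 RGC, 3 IPC and 5 interneuron markers listed further down each had their highest level, among the 4 named classes, in the class they mark, as did Neurod2, Neurod6 and Tbr1 for PN. The tables held 50550 nuclei, 30349 from saline and 20201 from EtOH embryos, with 44017566 to 83061737 unique molecular identifiers (UMIs) per saline embryo and 14078316 to 38034349 per EtOH embryo. Saline embryo S2-4 stood apart, with an SD of the log2 difference from its group of 0.313 over genes, against 0.157 to 0.236 in the other saline and 0.104 to 0.186 in the EtOH embryos. Embryos S2-1, E2-1 and E2-2 stood apart in Tcf7l2, as described with that gene. At most 18 cell barcodes were shared by any pair of embryos.

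In canonical Wnt signaling, beta-catenin, the product of Ctnnb1, is kept low by a destruction complex in which Apc and the Axin proteins act as scaffolds. When Wnt ligands bind their receptors, beta-catenin accumulates, enters the nucleus and binds the TCF/LEF factors encoded by Tcf7, Tcf7l1, Tcf7l2 and Lef1, which in its absence recruit Groucho-type corepressors such as Tle1. Axin2 and Nkd1 are themselves induced by the pathway and dampen it, which makes them widely used readouts of its activity. In the embryonic cortex the best known source of Wnt ligands is the cortical hem, at the medial edge.

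TCF/LEF factors bind a short core motif, CTTTGA on one strand or TCAAAG on the other. The windows of 250 bases before to 50 bases after each RefSeq start site (GRCm38.p6) were searched on both strands for 8 members (14 windows, Apc not included). The motif was present in 1 of the 14 windows, at an alternative start inside Lef1, and 16% of the 32851 windows of all genes held it. The bases before that start site are shown because they are the only ones among the members' windows with the motif, in capitals, and with 2 matches, whose first bases lie 180 and 120 bases before the start site:
Lef1, chr3:131156044-131156293, plus strand: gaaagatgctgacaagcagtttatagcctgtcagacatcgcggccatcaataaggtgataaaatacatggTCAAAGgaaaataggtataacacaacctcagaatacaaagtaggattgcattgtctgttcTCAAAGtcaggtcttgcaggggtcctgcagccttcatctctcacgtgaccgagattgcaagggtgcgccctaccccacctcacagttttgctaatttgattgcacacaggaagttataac

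A match is a run of letters and not a mapped binding site.

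The annotation used for positions was GENCODE M21 (GRCm38). Ctnnb1 lies at chr9:120929216-120960507 on the plus strand, Apc at chr18:34220924-34322552 (plus), Axin2 at chr11:108920349-108950783 (plus) and Nkd1 at chr8:88521354-88594884 (plus). Tcf7 lies at chr11:52252371-52283014 on the minus strand, Tcf7l1 at chr6:72626378-72789254 (minus), Tcf7l2 at chr19:55741820-55933654 (plus), Lef1 at chr3:131110471-131224356 (plus) and Tle1 at chr4:72117142-72200919 (minus). Some members overlap other genes, and the strand on which the reads were counted is not given in the sources used here. The antisense gene Ulk4 overlaps Ctnnb1 and had 37482 UMIs against 44458 for Ctnnb1. Gm11250 overlaps Tle1 on the other strand and had 6889 UMIs, 9.22% of those of Tle1. Gm26551 overlaps Tcf7 on the same strand and had 30866 UMIs, while Tcf7 had only 342 in all nuclei together.

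Levels are given as CPM, the UMIs of a gene in an embryo and cluster scaled to the same total everywhere, for embryos with at least 10 nuclei there. Differences between clusters are described without a test, since the clusters were made from the same genes. A pair of neighbours in the order of levels is said to differ beyond the spread where the mean difference within embryos exceeded its SD.

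Ctnnb1, the signal transducer itself, was found throughout. Its mean ranged from 48.3 ± 13.2 CPM (SD, n = 11 embryos) in callosal PN Cluster 22 to 177 ± 28.4 CPM (SD, n = 11) in non-mitotic IPC Cluster 6, a 3.66-fold range. Progenitors lay at the upper end, with 118 to 161 CPM in the RGC clusters and 159.5 to 177 CPM in the IPC clusters (Clusters 17 and 6). When summed by class, Ctnnb1 was higher in RGC than in PN in 11 of 11 embryos, by 0.74 ± 0.11 on the log2 scale (SD), and higher in IPC than in RGC in 11 of 11. The order from cluster to cluster was gradual, with 0 of 24 neighbouring pairs beyond the spread.

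Apc, the scaffold of the destruction complex, ran the other way. Its mean was 278 ± 28.3 CPM (SD, n = 11) in RGC Cluster 2 and 859.8 ± 59.0 CPM (SD, n = 11) in Int Cluster 13. The RGC clusters had 278 to 388 CPM, the IPC clusters 355 to 404 CPM, the PN clusters 491 to 787 CPM and the Int clusters 539.9 to 859.8 CPM. RGC were below PN and below Int in 11 of 11 embryos, by 0.94 ± 0.14 and 1.15 ± 0.14 on the log2 scale. Early PN Cluster 9 (491 CPM) was above non-mitotic IPC Cluster 6 (404 CPM) in 11 of 11 embryos, a step beyond the spread. Over the 25 clusters, the mean log2 levels of Apc had a Pearson r with every other member between -0.85 (Tcf7l1) and -0.62 (Tcf7). These 25 points come from the same 11 libraries and are a description only.

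Axin2, a negative regulator and direct target of the pathway, was concentrated in cortical hem RGC Cluster 21 at 232 ± 60.7 CPM (SD, n = 10), which was 21.5 times its median of 10.8 CPM over the clusters. RGC Clusters 20 and 2 followed with 54.3 ± 24.7 CPM (SD, n = 9) and 51.8 ± 9.67 CPM (SD, n = 11), and Layer I Cluster 14 with 31.8 ± 11.4 CPM (SD, n = 11). Cluster 21 was above Cluster 20 in 8 of the 8 embryos with both, Clusters 20 and 2 did not differ beyond their spread, and Cluster 2 was above Cluster 14 in 10 of 11. Cluster 21 was the highest cluster in 10 of 11 embryos. The exception was E2-1, which had 3 nuclei in Cluster 21 and 0 UMIs of Axin2 there. After thinning every nucleus to 2000 UMIs, 37.9 ± 9.48% (SD) of Cluster 21 nuclei had a UMI of Axin2, against 1.71 ± 0.36% of PN nuclei at the same depth. The part of free RNA in these shares was not tested.

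Nkd1, which binds Dishevelled and dampens the pathway, also had its highest level in Cluster 21, at 120.5 ± 30.4 CPM (SD, n = 10), with 60.1 ± 38.4 CPM (SD, n = 9) in Cluster 20, 49.9 ± 14.47 CPM (SD, n = 11) in Cluster 6 and 35.9 ± 22.6 CPM in Cluster 14. Cluster 21 exceeded Cluster 20 in 7 of 8 embryos. Unlike Axin2, Nkd1 was lower in RGC as a whole than in IPC, in 11 of 11 embryos and by 0.46 ± 0.18 on the log2 scale (SD). The interneuron clusters had 2.95 to 14.3 CPM.

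Tle1, a Groucho-type corepressor, peaked in Cluster 21 as well. Its 936 ± 159 CPM there (SD, n = 10) compared with 369.8 ± 39.4 CPM (SD, n = 11) in interneuron precursor Cluster 3, a step that held in 10 of 10 embryos. After thinning, 76.5 ± 7.57% of Cluster 21 nuclei had a UMI of Tle1, and 13.8 ± 2.95% of IPC nuclei did, the lowest share of the 4 named classes. Clusters 12 and 10 followed with 279 and 259.6 CPM. PN Cluster 24 had the lowest mean, 49.6 ± 37.6 CPM (SD, n = 10).

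Of the TCF/LEF factors, which carry the pathway to DNA, Tcf7l1 was highest in progenitors. Its mean was 639 ± 48.3 CPM (SD, n = 11) in non-mitotic RGC Cluster 12 and 587 ± 76.8 CPM (SD, n = 11) in Cluster 2, which did not differ beyond their spread. Cluster 3 (364 CPM) was below Cluster 2 in 11 of 11 embryos, and Clusters 20, 17 and 21 formed a group at 253, 251 and 235 CPM. The PN clusters had 13.1 to 36.5 CPM. Summed by class, Tcf7l1 was 24.4 times higher in RGC (481 CPM) than in PN (19.7 CPM) and 12.2 times higher than in Int (39.3 CPM), in 11 of 11 embryos each.

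Lef1 was high in Cluster 2 (243 ± 39.0 CPM, SD, n = 11), Cluster 21 (228 ± 69.9 CPM, SD, n = 10) and Cluster 20 (199 ± 91.3 CPM, SD, n = 9), and no neighbouring pair among these differed beyond its spread. It was low in the RGC of the interneuron lineage, with 49.9 ± 12.3 CPM (SD, n = 11) in Cluster 3, below Cluster 2 in 11 of 11 embryos. Lef1 was retained outside progenitors in Layer I Cluster 14 (164 ± 39.4 CPM) and in caudal subcortical PN Cluster 16 (101 ± 20.3 CPM). Rostral subcortical PN Cluster 4 had 15.8 ± 5.68 CPM. Lef1 and Nkd1 had a Pearson r of 0.85 over the 25 clusters, and Lef1 and Ctnnb1 of 0.83, again as a description over clusters of the same libraries.

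Tcf7l2 had its highest mean in Cluster 20 with 1057 ± 750.0 CPM (SD, n = 9), a value that rested on 3 embryos and is taken apart further down. Cluster 3 (464 CPM) was above Cluster 2 (298 CPM) in 11 of 11 embryos. Tcf7 was scarce, with a highest mean of 5.61 ± 4.598 CPM (SD, n = 9) in Cluster 20 and 162 of its 342 UMIs in RGC. At this depth, 0 of 24 neighbouring pairs of clusters differed in Tcf7 beyond the spread.

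**Figure D1:**
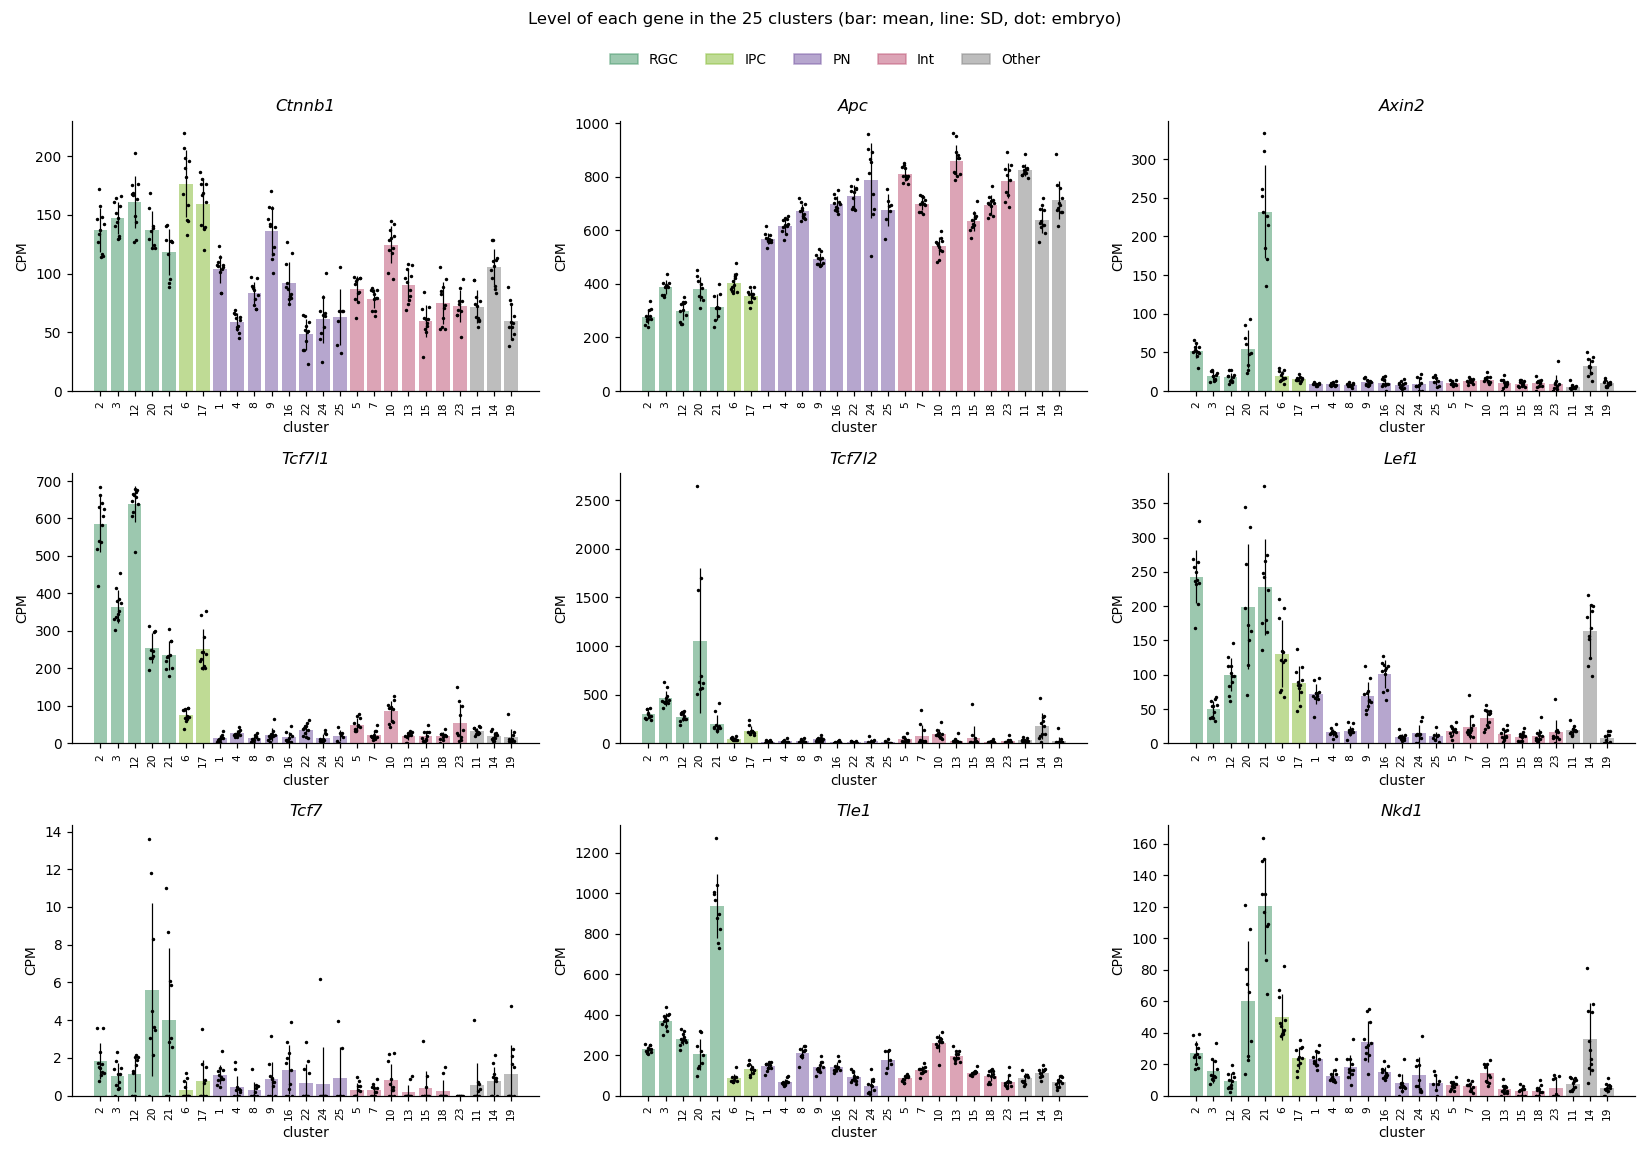
Mean level (CPM, bars) of the 9 genes in each of the 25 clusters, coloured by class, with the SD (lines) and each embryo with at least 10 nuclei (dots). Axin2, Tle1 and Nkd1 peak in Cluster 21 (232, 936 and 120.5 CPM), Tcf7l1 in Clusters 12 and 2, and Apc is lowest in RGC Cluster 2 (278 CPM).

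The genes whose profile over the 25 clusters was most like each member's were read from 9242 genes with at least 20 CPM in some cluster, by Pearson r of log2 mean CPM. For Axin2 they were Wnt8b (0.96), a ligand gene of the hem, Sned1 (0.93) and Rnf43 (0.93), a ubiquitin ligase that removes Wnt receptors. For Nkd1 they were Tpcn1 (0.90), Apcdd1 (0.86), a Wnt inhibitor, and Cyp4f13 (0.86), and for Lef1 Cyp4f13 (0.91), Mib1 (0.89) and Cd9 (0.88). Tle1 had Gm11250 (0.99), the gene on its other strand, and then Gm26763 (0.81) and Plekhg3 (0.80). Tcf7l1 had Plce1 (0.97), Lrp4 (0.97) and Gemin2 (0.96), and Tcf7l2 had Adgrv1 (0.93), Plch1 (0.92) and D3Ertd751e (0.92). Ctnnb1 had Mia2 (0.95), Tmem87a (0.95) and Gtpbp1 (0.94), Tcf7 had Rab11fip1 (0.85), Lrrk2 (0.83) and Ext1 (0.83), and Apc had Fam57b (0.96), Mast1 (0.96) and Evi5l (0.96). The points share the libraries, and no test was made.

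The effect of EtOH was tested with edgeR's quasi-likelihood test on counts summed per embryo and cluster, fitted over all genes of a cluster with Benjamini-Hochberg adjustment, and a call required both an adjusted p under 0.05 and a level, in the fit, either over 25% higher or below 0.8 of that in saline. The fits rescale each library (TMM), whereas the printed CPM, the overlaps and the differences within batches are not rescaled. A log2 fold change can therefore differ from the ratio of the printed means, also in sign. Of the 225 pairs of a member and a cluster, 167 passed the filter on low counts and 58 did not, among them all 25 of Tcf7. Called lower in EtOH embryos were Tcf7l1 in Clusters 1 and 8 and Tle1 in Clusters 4, 5 and 9, which made 5 of 167 pairs (2.99%), where 0.35% of all 217253 tests were called lower. None of the 167 was called higher by edgeR (0.442% of all tests were), while 33 (19.8%) had an unadjusted p under 0.05, against 17.4% of all tests. The median log2 fold change (EtOH minus saline) was -0.07 over the members' pairs and 0.01 over all tests. In 7 of the 167 pairs (4.19%) the groups did not overlap, against 2.14% of all tests. They were Tcf7l1 in Clusters 1 and 8, Tle1 in Clusters 9 and 21, Axin2 in Cluster 21, Ctnnb1 in Cluster 9 and Apc in Cluster 25.

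Over the sums of the 5 classes, 3 of 41 tested pairs were called lower, namely Tcf7l1 in PN and Tle1 in PN and in the other clusters, where 1.29% of all tests were called lower, and 0 were called higher by edgeR, where 2.46% of all tests were (10 of the 41 had an unadjusted p under 0.05, against 27.7% of all tests). Over all nuclei, Tle1 was called lower, with 3.55% of all genes called lower there.

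**Figure D2:**
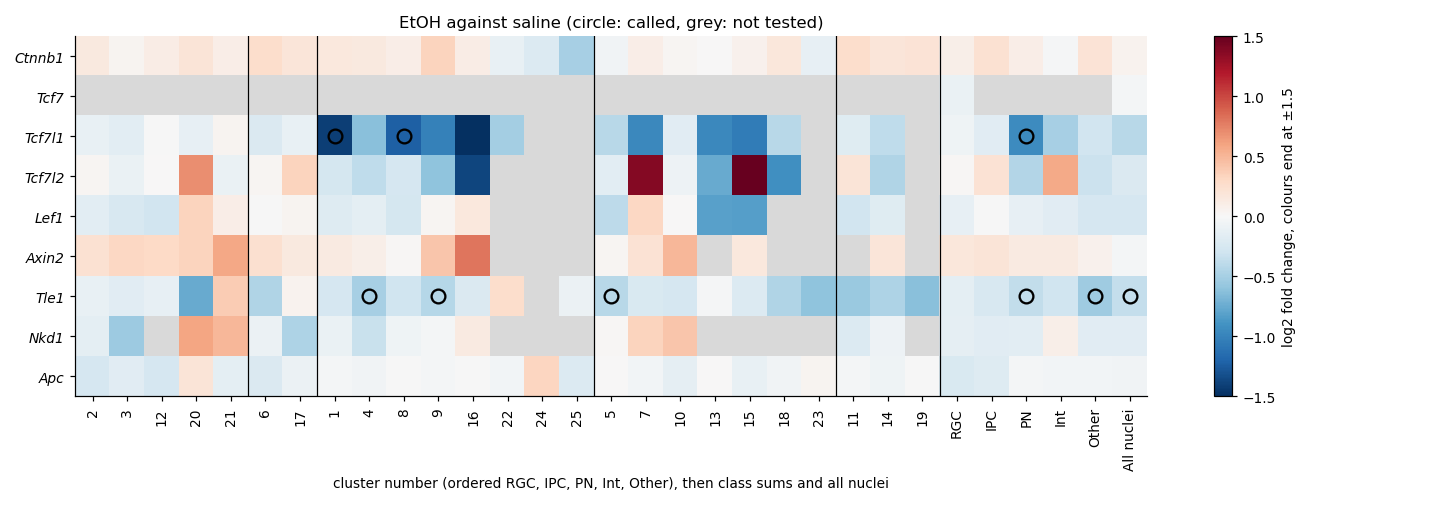
Log2 fold change (EtOH minus saline, edgeR) of each gene in the 25 clusters, the 5 classes and all nuclei, with circles on the 9 called values and grey for pairs that were not tested. Tcf7l1 and Tle1 are mostly below 0 and hold all the calls, and Axin2 is above 0 in the 17 clusters tested.

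Tcf7l1 was called lower in EtOH embryos in 2 clusters of PN. In callosal PN Cluster 1, the level was 16.5, 13.2, 23.3, 32.9 and 14.97 CPM in saline embryos S1-1, S1-2, S2-1, S2-2 and S2-4, from 53 to 112 UMIs each. In the EtOH embryos it was 3.62 CPM at the lowest (E2-3, 5 UMIs), 7.69 CPM at the median and 10.3 CPM at the highest (E2-2, 28 UMIs). Every EtOH embryo was thus below every saline embryo. The means were 20.2 ± 8.08 CPM (SD, n = 5) and 7.36 ± 2.95 CPM (SD, n = 6), a log2 fold change of -1.41 (SE 0.29, edgeR adjusted p = 0.0270), with 1.69% of the genes tested in Cluster 1 called lower. Within batches, the difference of the mean log2 values (here and for the other genes taken with a prior of 1 CPM) was -1.07 in batch 1 (n = 2 and 2) and -1.55 in batch 2 (n = 3 and 4). The call was also made with counts summed per dam (-1.38, edgeR adjusted p = 0.0165), while after thinning to 2000 UMIs the value was -0.71 (adjusted p = 0.303). With 1 embryo left out it was called in 4 of 11 fits, those without S1-2, S2-2, S2-4 or E1-1, and the adjusted p lay between 0.00287 and 0.0661.

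In PN 1 Cluster 8, the saline embryos had 20.9, 20.02, 17.3, 27.0 and 12.2 CPM of Tcf7l1 in the same order, and the EtOH embryos from 2.10 CPM (E2-3, 3 UMIs) to 11.96 CPM (E1-2), with a median of 9.27 CPM. The highest EtOH embryo lay just below the lowest saline embryo, S2-4. The log2 fold change was -1.23 (SE 0.29, edgeR adjusted p = 0.0431), the means were 19.5 ± 5.41 CPM (SD, n = 5) and 7.76 ± 4.29 CPM (SD, n = 6), and 0.865% of the genes of Cluster 8 were called lower. Within batches it was -1.62 (batch 1) and -1.25 (batch 2). This call remained in 1 of the 11 fits that leave out an embryo, that without S2-4 (adjusted p = 0.000773). Leaving out S2-4 also raised the calls over all genes and clusters from 1721 to 19059. The call in Cluster 8 was not made with batch as a covariate (-1.18, adjusted p = 0.0642) or with counts summed per dam (-1.21, adjusted p = 0.0792), and after thinning the gene did not pass the filter there. In Cluster 1 the call was made with batch as a covariate (-1.47, adjusted p = 0.0208). Without S2-1, E2-1 and E2-2, the log2 fold change of Tcf7l1 was -1.45 in Cluster 1 and -1.54 in Cluster 8, with edgeR adjusted p of 0.2004 and 0.304.

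Summed over the 8 PN clusters, where more counts were available, Tcf7l1 was at 22.2, 23.5, 28.5, 37.5 and 20.5 CPM in the saline embryos and between 12.8 and 16.6 CPM in the EtOH embryos (median 13.52 CPM), without overlap. The means of 26.4 ± 6.87 CPM (SD, n = 5) and 14.1 ± 1.48 CPM (SD, n = 6) gave a log2 fold change of -0.94 (SE 0.14, edgeR adjusted p = 0.0211), and 2.36% of the genes tested in PN were called lower. The difference was present in both batches (-0.78 and -0.89), with counts summed per dam (-0.93, adjusted p = 0.0328) and after thinning (-1.09, adjusted p = 0.0196). It was called in 6 of 11 fits with an embryo left out and not without S1-1, S1-2, S2-1, E2-2 or E2-3. Over the 11 fits the adjusted p lay between 2.07e-05 (without S2-4) and 0.0629 (without S1-2). Without S2-1, E2-1 and E2-2 the value was -0.98, but with an adjusted p of 0.193 over the remaining 8 embryos.

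In RGC, where Tcf7l1 is high, the levels overlapped. Saline embryos had 479 ± 45.5 CPM (SD, n = 5) and EtOH embryos 482 ± 61.4 CPM (SD, n = 6). The log2 fold change after the scaling of the fit was -0.07 (SE 0.08, edgeR adjusted p = 0.625), and the unscaled difference was -0.09 in batch 1 and 0.04 in batch 2. Across the clusters, Tcf7l1 was below 0 on the log2 scale in 20 of 21 tested, with a median of -0.42, the exception being Cluster 21 (0.05). The log2 difference between RGC and PN within an embryo was 4.16 ± 0.33 in saline and 4.999 ± 0.20 in EtOH, so that it was 0.84 larger in EtOH (two-sided exact permutation test, p = 0.00433, the smallest that these group sizes allow, and 0.0779 after Benjamini-Hochberg adjustment over 18 such tests). None of the 18 tests of a difference between classes passed the adjustment, and 7 had an unadjusted p under 0.05.

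Since PN held Tcf7l1 at a small fraction of its RGC level, markers of other cells were read in the same sums. The summed level of the 7 RGC markers (Hes1, Hes5, Sox2, Pax6, Nes, Vim and Fabp7) in PN was 40.3 to 69.7 CPM in saline and 31.4 to 58.6 CPM in EtOH embryos. That of the 3 IPC markers (Eomes, Neurog2 and Btg2) was 33.5 to 48.4 CPM and 23.5 to 31.2 CPM, that of the 5 interneuron markers (Gad1, Gad2, Dlx1, Dlx2 and Dlx5) 50.5 to 123 CPM and 24.1 to 60.3 CPM, and that of the 3 microglia markers (P2ry12, Ly86 and Csf1r) 3.52 to 6.93 CPM and 6.30 to 9.64 CPM. The 6 markers of choroid plexus and hem (Ttr, Otx2, Lmx1a, Wnt8b, Wnt3a and Rspo2) summed to 19.8 to 74.3 CPM in saline (median 21.4 CPM) and 8.63 to 28.01 CPM in EtOH embryos (median 11.8 CPM), and the 8 thalamus markers (Ntng1, Gbx2, Lhx9, Lhx2, Slc17a6, Prox1, Rora and Olig3) to 400.4 to 634 CPM (median 543 CPM) and 373 to 465 CPM (median 413 CPM). Of the 11 marker lists read in PN, that of IPC alone did not overlap between the groups, and no marker of the lists named here was at 0 in every embryo. In Cluster 1 the medians went from 61.7 CPM in saline to 33.0 CPM in EtOH embryos for the interneuron markers, from 22.3 to 9.95 CPM for choroid plexus and hem, from 35.9 to 22.99 CPM for IPC and from 52.5 to 48.2 CPM for RGC. In Cluster 8 they went from 78.5 to 69.5, from 21.8 to 7.98, from 33.4 to 24.8 and from 47.3 to 37.5 CPM in the same order, and 0 of the 11 lists were without overlap in either cluster. The part of these shifts in the Tcf7l1 differences was not tested. Relative to the summed RGC markers, Tcf7l1 in PN was 0.391 to 0.584 in saline and 0.219 to 0.477 in EtOH embryos. In Cluster 1 this ratio was 0.285 to 0.448 and 0.128 to 0.212, without overlap, in Cluster 8 it was 0.256 to 0.488 and 0.0857 to 0.296, with overlap, and in RGC themselves it was 0.773 to 0.970 and 0.607 to 0.768, without overlap. The summed RGC markers in RGC were 542 to 669 CPM in saline (median 559 CPM) and 622 to 740 CPM in EtOH embryos (median 711 CPM). The ratio in RGC therefore also reflects a higher median of its denominator in EtOH embryos.

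Tle1 was lower in EtOH embryos in several neuronal populations. In early PN Cluster 9 the saline embryos had 150.04, 164, 193.5, 165 and 143.5 CPM in the same order, and the EtOH embryos 97.6 to 136 CPM with a median of 124 CPM, again without overlap. The means were 163 ± 19.2 CPM (SD, n = 5) and 122 ± 13.9 CPM (SD, n = 6), a log2 fold change of -0.43 (SE 0.10, edgeR adjusted p = 0.0376), with 0.799% of the genes of Cluster 9 called lower. In rostral subcortical PN Cluster 4, the saline embryos had 71.4, 69.3, 93.7, 95.3 and 67.3 CPM and the EtOH embryos 46.7 to 68.4 CPM with a median of 55.7 CPM. There the groups met at E1-2 and S2-4, and the log2 fold change was -0.49 (SE 0.11, edgeR adjusted p = 0.0495), with 0.386% of genes called lower. In migrating Int Cluster 5, the saline embryos had 95.9, 90.9, 106, 94.0 and 95.6 CPM and the EtOH embryos 61.0 to 94.5 CPM with a median of 74.8 CPM. Only E2-4 reached the saline range, and the log2 fold change was -0.41 (SE 0.10, edgeR adjusted p = 0.0412), with 0.813% of genes called lower.

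These 3 calls lay close to the threshold. Leaving out 1 embryo, Cluster 9 remained called in 2, Cluster 5 in 2 and Cluster 4 in 1 of 11 fits, and that without S2-4 was among them each time (adjusted p = 0.000899, 0.00524 and 0.00111). With counts summed per dam, their adjusted p were 0.0966, 0.0923 and 0.267, after thinning 0.0688, 0.0789 and 0.176 (log2 fold changes of -0.50, -0.50 and -0.47), and without S2-1, E2-1 and E2-2 they were 0.253, 0.295 and 0.334. With batch as a covariate, Cluster 5 was called (adjusted p = 0.04901), but not Clusters 9 (0.0503) and 4 (0.0624). Within batches, the difference in Cluster 4 was -0.08 in batch 1 and -0.68 in batch 2, so that it came mostly from batch 2. In Clusters 5 and 9 it was -0.24 and -0.44, and -0.46 and -0.40. Beside them in Cluster 9, the 5 interneuron markers summed to 43.6 to 115 CPM in saline and 6.29 to 47.8 CPM in EtOH embryos, and the 3 IPC markers to 81.9 to 137 and 52.7 to 83.4 CPM. In Cluster 4 the interneuron markers summed to 47.4 to 124 CPM in saline and 19.9 to 74.8 CPM in EtOH embryos, and the 3 microglia markers to 2.36 to 5.07 and 5.68 to 12.4 CPM, without overlap. In Cluster 5, 2 of the 11 lists did not overlap, the 4 striatum markers (Ebf1, Rarb, Foxp1 and Isl1) with 280.1 to 372 and 146 to 256 CPM and the microglia markers with 5.28 to 7.67 and 9.31 to 13.3 CPM. The part of these markers in the Tle1 differences was not tested.

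Over all nuclei, Tle1 was at 173, 179, 188, 196 and 172 CPM in the saline embryos and at 139 to 157 CPM in the EtOH embryos (median 150.3 CPM). The groups did not overlap, with means of 182 ± 10.4 CPM (SD, n = 5) and 149 ± 6.60 CPM (SD, n = 6). The log2 fold change after the scaling of the fit was -0.36 (SE 0.05, edgeR adjusted p = 0.00999), larger in size than that of these unscaled means. The call was made in 11 of 11 fits with an embryo left out (adjusted p at most 0.0438), and the difference was -0.20 in batch 1 and -0.33 in batch 2. With counts summed per dam it was -0.37 (adjusted p = 0.0758), and without S2-1, E2-1 and E2-2 it was -0.31 (adjusted p = 0.181). The sum over all nuclei mixes classes that differ in Tle1, with a mean of 318 CPM in RGC and 129 CPM in PN. The part of the mix of classes in this difference was not tested. In PN, Tle1 was at 145 ± 9.90 CPM (SD, n = 5) and 116 ± 11.3 CPM (SD, n = 6), without overlap, a log2 fold change of -0.37 (SE 0.07, edgeR adjusted p = 0.0235). It was called in 6 of 11 fits with an embryo left out, and its adjusted p was 0.122 with counts summed per dam and 0.193 without S2-1, E2-1 and E2-2. Averaged with equal weight over the 6 PN clusters with enough nuclei in every embryo, the difference was -0.22 (exact permutation test, adjusted p = 0.0557). In the 3 other clusters together Tle1 was at 107 ± 6.20 and 78.3 ± 15.01 CPM, with a log2 fold change of -0.53 (SE 0.10, edgeR adjusted p = 0.0412) and 0.493% of genes called lower there, and embryo E1-2 (105 CPM) lay within the saline range. This value was called in 3 of 11 fits with an embryo left out, and its adjusted p was 0.0532 with batch as a covariate, 0.0526 after thinning, 0.196 per dam and 0.2995 without S2-1, E2-1 and E2-2. In the same sums the 3 markers of oligodendrocyte precursors (Pdgfra, Olig2 and Sox10) were at 1.85 to 2.88 CPM in saline and 0 to 1.61 CPM in EtOH embryos, without overlap, and their part was not tested. In Int the adjusted p was 0.0297, but the fold change of 0.811 did not pass the limit.

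In RGC, Tle1 had 327 ± 15.3 CPM in saline and 311 ± 18.5 CPM in EtOH embryos (log2 fold change -0.15, SE 0.06, edgeR adjusted p = 0.121). Of the 24 clusters tested, Tle1 was below 0 in 21, with a median of -0.25, and above 0 in Clusters 17, 21 and 22.

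**Figure D3:**
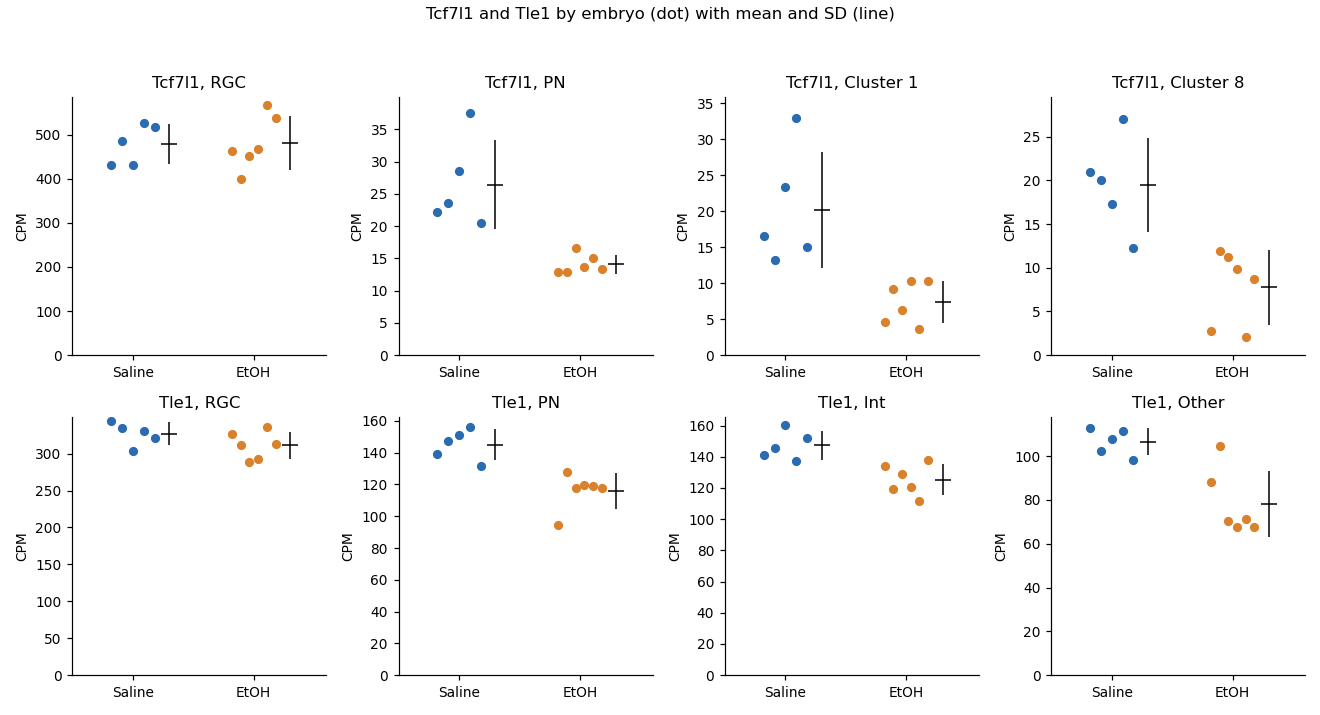
Level (CPM) of Tcf7l1 and Tle1 in each embryo (dots) in RGC, in PN and in the clusters or classes named above each panel, with the mean and SD of each group (lines). Tcf7l1 overlaps between saline and EtOH in RGC (479 and 482 CPM on average) and not in PN, Cluster 1 or Cluster 8.

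In hem Cluster 21 the feedback genes lay higher in EtOH embryos, without passing the threshold. Axin2 was at 185, 136, 171, 226 and 215 CPM in saline embryos S1-1, S1-2, S2-1, S2-2 and S2-4. It was at 262, 253, 231, 333 and 310.4 CPM in EtOH embryos E1-1, E1-2, E2-2, E2-3 and E2-4, the 5 with at least 10 nuclei there. Every EtOH embryo was above every saline embryo, though E2-2 exceeded S2-2 only slightly. The means of 186 ± 35.8 CPM (SD, n = 5) and 278 ± 42.3 CPM (SD, n = 5) gave a log2 fold change of 0.58 (SE 0.15, edgeR adjusted p = 0.0838), and the difference was 0.69 in batch 1 and 0.51 in batch 2. It was called with DESeq2 (adjusted p = 0.0455) and without S2-4 (adjusted p = 0.0455), and had an adjusted p of 0.395 with counts summed per dam. The first 2 of these settings also raised the calls over all genes and clusters, from 1721 to 5651 and 19059.

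Nkd1 in Cluster 21 was at 128, 86.3, 64.7, 108 and 109 CPM in the saline and 149, 128, 164, 117 and 150.3 CPM in the same EtOH embryos. The groups overlapped through S1-1, and the log2 fold change was 0.50 (SE 0.19, edgeR adjusted p = 0.271). Tle1 there was at 875, 752, 898, 730.2 and 824 CPM against 1004, 996, 965.5, 1272 and 1039 CPM. These did not overlap, and the log2 fold change was 0.38 (SE 0.12, edgeR adjusted p = 0.187), not called and in the opposite direction to Tle1 summed over PN or over Int. Lef1 overlapped fully, at 221 ± 49.97 and 236 ± 91.4 CPM (log2 fold change 0.10, SE 0.24, edgeR adjusted p = 0.930).

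Markers were also read in Cluster 21, and of 11 lists that of RGC alone did not overlap between the groups. The lists of hem and interneurons overlapped, and the median of the interneuron markers was lower in EtOH embryos (46.7 CPM against 195 CPM). The summed level of 6 markers of choroid plexus and hem was 5409 to 6310 CPM in saline and 5819 to 7991 CPM in EtOH embryos, that of the 7 RGC markers 217 to 312 CPM and 313 to 417 CPM, and that of the 5 interneuron markers 97.5 to 261 CPM and 4.33 to 216 CPM. Whether the makeup of the nuclei in Cluster 21 has a part in the Axin2 difference was not tested. The EtOH embryos had 24 to 45 nuclei each in the cluster and the saline embryos 45 to 206, so the EtOH levels rest on 41 to 95 UMIs of Axin2.

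The log2 fold change of Axin2 was above 0 in all 17 clusters tested, Cluster 21 included, with a median of 0.23 and the smallest adjusted p in Cluster 21, but in 9 of the 17 the batches had opposite directions. In Cluster 2 it was 46.0 ± 10.3 CPM (SD, n = 5) and 56.7 ± 6.34 CPM (SD, n = 6), with overlap (log2 fold change 0.23, SE 0.13, edgeR adjusted p = 0.303). In Cluster 20 the difference changed sign between batches, from 1.14 in batch 1 (n = 2 and 1) to -0.27 in batch 2 (n = 3 and 3). Over all nuclei Axin2 was at 19.7 ± 8.70 and 20.04 ± 3.26 CPM, where saline embryo S2-2 alone had 34.8 CPM and also the most Cluster 21 nuclei, 206. Nkd1 showed no such uniform direction, with 6 of 16 tested clusters above 0 and opposite directions in the batches in 9 of the 16 and in all 6 sums by class or over all nuclei.

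**Figure D4:**
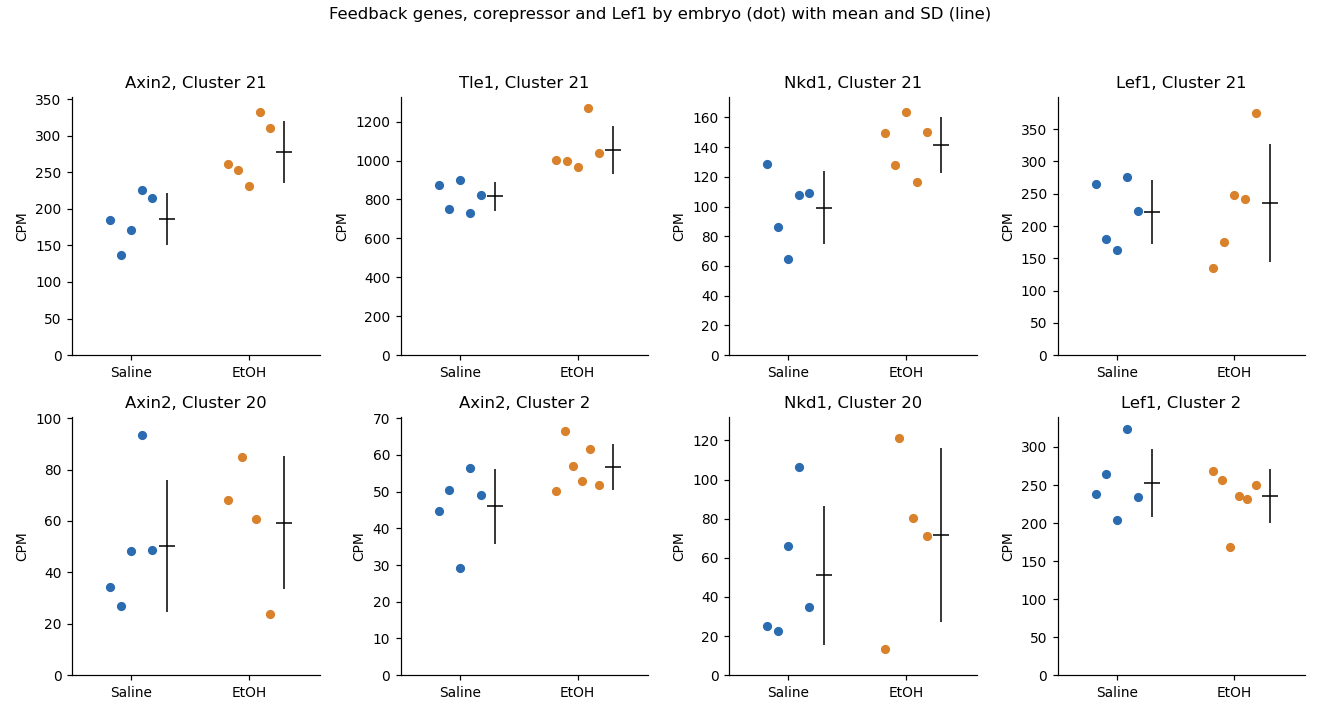
Level (CPM) of Axin2, Tle1, Nkd1 and Lef1 in Cluster 21 and of Axin2, Nkd1 and Lef1 in RGC Clusters 20 and 2, by embryo (dots, embryos with at least 10 nuclei) with mean and SD (lines). Axin2 and Tle1 do not overlap between the groups in Cluster 21 (means 186 and 278 CPM, and 816 and 1055 CPM), whereas Lef1 does.

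For Ctnnb1 and Apc edgeR made 0 calls, with an unadjusted p under 0.05 in 3 of 25 clusters for Ctnnb1 and in 4 of 25 for Apc. The log2 fold change of Ctnnb1 was above 0 in 20 of 25 clusters (median 0.11) and that of Apc below 0 in 20 of 25 (median -0.04). In Cluster 9, Ctnnb1 was at 113, 100.3, 116, 122 and 139.5 CPM in the saline embryos and at 140.5 to 169.9 CPM in the EtOH embryos, just without overlap. The log2 fold change was 0.33 (SE 0.09, edgeR adjusted p = 0.0627), and 0.51 and 0.27 within batches. It was called without S2-4 (edgeR adjusted p = 0.00537) and with dam as a random block (voom, adjusted p = 0.0486), and had an adjusted p of 0.282 with counts summed per dam. The first 2 of these settings also raised the calls over all genes and clusters, from 1721 to 19059 and 6457. In IPC, Ctnnb1 was at 153 ± 20.02 CPM (SD, n = 5) and 187 ± 8.95 CPM (SD, n = 6), a log2 fold change of 0.22 (SE 0.07, edgeR adjusted p = 0.07996), and saline embryo S2-4 (184 CPM) lay in the EtOH range. Without S2-4, its adjusted p in IPC was 0.005235, with a fold change that still did not pass the limit.

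Apc in RGC was at 339, 329, 398, 323 and 316 CPM in the saline embryos and at 289.6 to 338 CPM in the EtOH embryos (median 305 CPM). E2-1 alone reached the saline range, and the log2 fold change was -0.23 (SE 0.07, edgeR adjusted p = 0.0628), -0.16 and -0.14 within batches. In RGC Cluster 2 it was 298 ± 26.7 CPM (SD, n = 5) and 261 ± 15.9 CPM (SD, n = 6; log2 fold change -0.25, SE 0.07, edgeR adjusted p = 0.0736). In IPC the log2 fold change was -0.19 (SE 0.06, edgeR adjusted p = 0.0989). In PN the group means of Apc were 616.5 ± 12.2 and 624 ± 20.98 CPM. Apc in Cluster 25, where the groups did not overlap, rests on 2 EtOH embryos (703 ± 30.9 and 603 ± 53.0 CPM, edgeR adjusted p = 0.939).

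Tcf7l2 differed between embryos more than between treatments. In Cluster 20, saline embryos S1-1, S1-2, S2-2 and S2-4 had 563, 689, 573 and 624.7 CPM, and EtOH embryos E1-1 and E2-4 had 509.8 and 627 CPM, while E1-2 and E2-3 had fewer than 10 nuclei there. Embryos S2-1, E2-1 and E2-2 had 1703, 2647 and 1574 CPM, so 1 saline and 2 EtOH embryos, all of batch 2, lay far above the other 6. The mean of Cluster 20 was 598 ± 62.4 CPM (SD, n = 6) without them, against 1057 CPM with them, and Cluster 20 was still the highest of the 25 clusters. In the 22 clusters where each of these 3 embryos had at least 10 nuclei, they were above all others in 9 and had the higher mean in 21. In Int Cluster 7 they averaged 229 CPM and the other 8 embryos 19.9 ± 8.26 CPM, and in Int Cluster 15 178 CPM and 13.03 ± 6.77 CPM. These 3 embryos were singled out after their values were seen, and no test was made between them and the rest.

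Before the tables were deposited, the authors had taken out a cluster of thalamic nuclei, marked by Ntng1 and Tcf7l2. They report it as biased to only 3 of the samples, which their text does not name. In what remained, the 8 thalamus markers together gave 1435 to 1770.3 CPM in Cluster 20 of S2-1, E2-1 and E2-2 and 1170 to 2141 CPM in the other 6 embryos. Rora was the largest part of these sums, at 895 to 1074 CPM in the 3 embryos and 979 to 1787.5 CPM in the other 6. The markers above all other embryos in these 3 were 2 of the 8, Lhx9 and Gbx2. Of these, Lhx9, a transcription factor of the developing thalamus, was at 57.4, 159 and 72.9 CPM in Cluster 20 of S2-1, E2-1 and E2-2, and at 0 to 33.0 CPM in the other 6 embryos. Ntng1 was at 124, 258.5 and 62.3 CPM in these 3 and at 13.9 to 104 CPM in the others, with overlap. Gbx2, which defines thalamic neurons, was at 0.431, 1.64 and 1.52 CPM in the 3 embryos, from 1 UMI each, and at 0 in the other 6. In Layer I Cluster 14, Lhx9 overlapped, at 80.8 to 136 CPM in the 3 embryos and 86.4 to 134 CPM in the other 8, and 0 of the 8 markers stood above all other embryos. Summed in Int Cluster 7, the 8 markers gave 1168 to 1545 CPM in the 3 embryos and 675 to 987 CPM in the other 8, without overlap. Their sums in Int Cluster 15 overlapped, at 654 to 870 CPM and 541 to 895 CPM. The part of thalamic tissue in the Tcf7l2 levels was not tested. Among the other members, the 3 embryos were above all others in 1 of these 22 clusters for Ctnnb1 and in 0 for the remaining 7. Between treatments, Tcf7l2 in Cluster 20 was at 831 ± 490.0 CPM (SD, n = 5) and 1340 ± 994 CPM (SD, n = 4; log2 fold change 0.70, SE 0.57, edgeR adjusted p = 0.755), and its largest value, 2.13 (SE 0.99) in Cluster 15, had an adjusted p of 0.384.

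**Figure D5:**
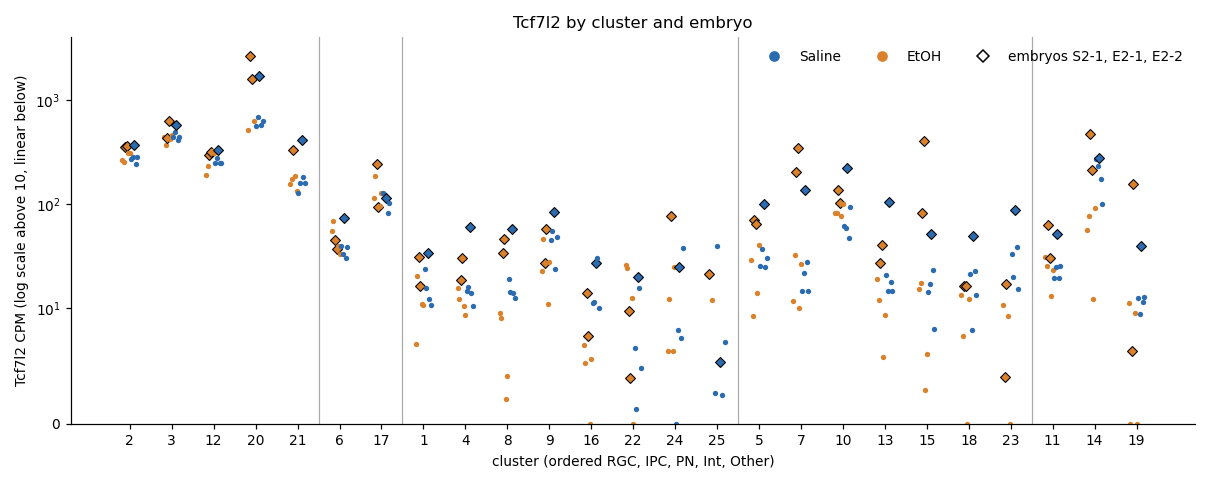
Tcf7l2 level (CPM, log scale above 10 and linear below) of each embryo in each of the 25 clusters, with diamonds for embryos S2-1, E2-1 and E2-2. In Cluster 20 the diamonds lie between 1574 and 2647 CPM and the circles between 509.8 and 689 CPM, whatever the treatment.

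Lef1 was not called in any of 19 tested clusters by edgeR, and 0 of its tests had an unadjusted p under 0.05. In Cluster 2 it was at 238, 264, 203, 324 and 234 CPM in the saline embryos and at 168 to 269 CPM in the EtOH embryos, with partial overlap (log2 fold change -0.15, SE 0.12, edgeR adjusted p = 0.471). Its direction was opposite in the batches in 14 of the 19 clusters. Tcf7 could be tested in RGC, at 1.76 ± 0.74 CPM (SD, n = 5) and 1.81 ± 0.73 CPM (SD, n = 6), where its log2 fold change after the scaling of the fit was -0.09 (edgeR adjusted p = 0.886). A difference in Tcf7 in the other classes was not detectable at this depth.

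The share of nuclei with a UMI was compared after thinning to 2000 UMIs, since the median depth per nucleus was 6325 to 9051 UMIs in saline and 4071.5 to 6911 in EtOH embryos. Of 54 two-sided exact permutation tests, 0 passed the adjustment (smallest adjusted p = 0.117) and 10 had an unadjusted p under 0.05. Tle1 was found in 25.8 ± 1.27% of all saline nuclei (SD, n = 5) and 21.5 ± 0.94% of EtOH nuclei (SD, n = 6; exact permutation test, p = 0.00433, the smallest possible). This share also depends on the mix of classes, whose part was not tested. Tcf7l1 was found in 3.86 ± 0.88% of saline and 1.96 ± 0.67% of EtOH PN (exact permutation test, p = 0.00433). PN have the lowest share of the 4 named classes for Tcf7l1, and how much of it is free RNA was not tested. Apc was found in 46.0 ± 3.08% and 41.3 ± 1.36% of RGC (exact permutation test, p = 0.00866), and Ctnnb1 in 25.5 ± 4.12% and 32.2 ± 3.28% of IPC (exact permutation test, p = 0.0260). The directions are those of the levels. Without thinning, 7 of the 54 tests passed, and the shares were 56.3 and 42.7% for Tle1 in all nuclei, 13.2 and 5.25% for Tcf7l1 in PN, 83.4 and 70.2% for Apc in RGC, and 61.0 and 59.5% for Ctnnb1 in IPC, where the direction turned.

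The other intracellular genes of the pathway were read from 3 lists with 44 genes in all: the destruction complex and dishevelled (15), nuclear cofactors (15) and other feedback and target genes (14). By level, 5 of the 14 feedback and target genes had their highest mean in Cluster 21, as Axin2 and Nkd1 did. They were Znrf3 at 562 ± 78.6 CPM (SD, n = 10), a ubiquitin ligase that removes Wnt receptors, its paralog Rnf43 at 58.4 ± 18.5 CPM, the Wnt inhibitors Apcdd1 at 177 ± 62.1 CPM and Wif1 at 17.4 ± 18.6 CPM, and the target gene Sp5 at 9.57 ± 6.05 CPM. Cluster 2 came next for Znrf3 (532 CPM), Rnf43 (30.9 CPM) and Sp5 (1.12 CPM). Of the 15 genes of the destruction complex list, 5 were highest in IPC Cluster 6, as Ctnnb1 was, among them Gsk3b (704 ± 32.5 CPM) and Csnk1a1 (463 ± 29.7 CPM), kinases that phosphorylate beta-catenin. Of the list genes with at least 20 CPM somewhere, 7 were highest in Cluster 6 and 6 in Cluster 10. Cluster 21 was highest for 4 of them. The share of all genes that peak in these clusters was not counted, so the counts are a description only.

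The effect of EtOH on these lists was read from the same fits. Of 757 tests of 39 genes, edgeR called 1 lower and 0 higher (111 had an unadjusted p under 0.05), with a median log2 fold change of -0.08. Of all tests, 0.35% were called lower, 0.442% higher and 17.4% had such a p. The gene was Neurog2, a proneural factor, in Cluster 1, at 11.6 ± 1.92 CPM (SD, n = 5) and 7.15 ± 1.64 CPM (SD, n = 6), with overlap (log2 fold change -0.72, SE 0.20, edgeR adjusted p = 0.0462). Over the classes, 2 of 189 tests were called lower and 0 higher by edgeR (66 had an unadjusted p under 0.05), where 1.29% of all tests were called lower, 2.46% higher and 27.7% had such a p. Neurog2 in PN was at 9.95 ± 1.00 CPM and 6.27 ± 0.78 CPM, without overlap (log2 fold change -0.71, SE 0.11, edgeR adjusted p = 0.0211). Neurog2 is also 1 of the 3 IPC markers, whose sum in PN was likewise lower in EtOH embryos without overlap, and the part of this in its call was not tested. Znrf3 in PN was at 72.6 ± 9.75 CPM and 59.6 ± 2.51 CPM, with overlap (log2 fold change -0.33, SE 0.07, edgeR adjusted p = 0.0268). Over all nuclei, Tle2, a further Groucho-type corepressor, was higher, at 12.998 ± 2.13 and 17.9 ± 2.34 CPM (log2 fold change 0.39, SE 0.12, edgeR adjusted p = 0.0364). Tle2 was the 1 call among the 43 list genes tested over all nuclei, where 1550 of 18138 genes were called higher. None of these 4 calls was made with counts summed per dam (adjusted p between 0.0928 and 0.131), after thinning (Neurog2 in Cluster 1 did not pass the filter then) or without S2-1, E2-1 and E2-2 (adjusted p between 0.193 and 0.2702). With 1 embryo left out, Neurog2 was called in 1 of 11 fits in Cluster 1 (without S2-4) and in 6 in PN, Znrf3 in 4 and Tle2 in 3. With batch as a covariate, Neurog2 in Cluster 1 had an adjusted p of 0.0515, and the other 3 calls were made.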

How the data were processed

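The authors aligned the reads with Cell Ranger on mm10, filtered and clustered the nuclei with Seurat, and deposited raw UMI counts per gene and nucleus, in 1 table per embryo and cluster (275 tables for 11 of the 12 samples listed). The sample labelled S2-3 was not analysed here. Nuclei were not filtered further, and doublets were not called again. Cluster names and classes were taken from the study's methods and text.

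Counts were summed per embryo and cluster (at least 10 nuclei) or class, and tested with edgeR 4.0.16 (limma 3.58.1, R 4.3.3) with TMM scaling, its filter on low counts, robust quasi-likelihood fits and no covariate, as the study tests treatment alone. DESeq2 1.42.0 and the other settings given at the end were alternatives. Shares of nuclei were compared after random thinning to 2000 UMIs per nucleus, which left out 177 saline and 210 EtOH nuclei, and log2 differences between classes were taken with a prior of 1 CPM, both by two-sided exact permutation tests over embryos. The scripts were tested on simulated data. Python 3.11.15, NumPy 2.4.6, pandas 2.3.3 and matplotlib 3.10.9 were used.

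Named were all 9 members, every gene of the pathway lists called in a cluster or class, the 3 genes most like each member over the clusters (mean of at least 20 CPM in some cluster), and the markers of the lists reported. Pathway genes named for their level alone (Rnf43, Apcdd1, Wif1, Sp5, Gsk3b and Csnk1a1) and genes that overlap members were chosen after their values were seen. The members, the lists and the tests were chosen with earlier results of these data known. The removal of S2-1, E2-1 and E2-2 was added after their values were seen. The marker list of PN as a whole is not reported here.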

Additional observations from a re-analysis of the deposited data

Results flagged for a closer look

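In 146 groups of embryos, the highest or lowest value was compared with the rest by Dixon's gap, and 19 stood apart, where chance gives about 1 in 20 groups, or 7.3. No explanation of them was weighed. Saline embryo S2-2 accounted for 7 of them. Its level was 1.34 CPM for Tcf7 over all nuclei (0.566 to 0.789 CPM in the other saline embryos), 129 CPM for Lef1 over all nuclei (56.2 to 70.99 CPM), 34.8 CPM for Axin2 over all nuclei (14.3 to 19.1 CPM) and 15.02 CPM in Int (8.81 to 10.6 CPM). For Nkd1 it had 49.995 CPM in RGC (23.3 to 28.8 CPM), 64.4 CPM in IPC (36.2 to 39.7 CPM) and 34.4 CPM over all nuclei (13.4 to 19.5 CPM). S2-2 also held 206 of the hem nuclei of Cluster 21, against 45 to 90 in the other saline embryos, and the part of this in its levels was not tested.

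Saline embryo S2-1 accounted for 6. Its Tcf7l2 level was 667 CPM in RGC (268 to 366 CPM in the other saline embryos), 49.97 CPM in PN (15.1 to 19.9 CPM), 124.97 CPM in Int (26.1 to 39.1 CPM), 248.7 CPM over all nuclei (89.6 to 107 CPM) and 1703 CPM in Cluster 20 (563 to 689 CPM). Its Apc level in RGC was 398 CPM (316 to 339 CPM).

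The remaining 6 values were spread over 5 embryos. EtOH embryo E1-1 had 41.2 CPM of Tcf7l1 in the other clusters (17.04 to 24.8 CPM in the other EtOH embryos) and 94.4 CPM of Tle1 in PN (118 to 128 CPM). E2-2 had 47.4 CPM of Lef1 in Int (10.2 to 20.7 CPM), E2-1 had 168 CPM of Lef1 in Cluster 2 (232 to 269 CPM), and E2-3 had 1272 CPM of Tle1 in Cluster 21 (965.5 to 1039 CPM). Saline embryo S1-1 had 511 CPM of Tcf7l1 in Cluster 12 (639 to 677 CPM).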

How the results depend on the processing

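The 5 calls of members in clusters became 8 with DESeq2, 19 without a filter on low counts, 2 with batch as a covariate, 2 with counts summed per dam, and 0 after thinning to 2000 UMIs, in batch 2 alone or without S2-1, E2-1 and E2-2. They numbered 5 with RLE size factors, with at least 30 nuclei or without a limit on the fold, and 7 with dam as a random block (voom). With 1 embryo left out they ranged from 0 to 13, the highest without S2-4. These counts can include pairs outside the 5. Of the 2 with counts summed per dam, only Tcf7l1 in Cluster 1 was among the 5. The 4 calls in classes and all nuclei became 1 with counts summed per dam, 1 in batch 2 alone, 0 without S2-1, E2-1 and E2-2, and ranged from 1 to 4 with 1 embryo left out. They numbered 3 to 5 under the other settings run as fits. Exact permutation tests of means over the clusters of a class, not run over all nuclei, called 0, with 0.0557 as the smallest adjusted p over 45 tests, and gave -0.96 for Tcf7l1 in PN, -0.22 for Tle1 in PN and -0.54 for Tle1 in the other clusters. The 1 call from the pathway lists in clusters became 4 with DESeq2, 2 with voom, 0 with batch as a covariate and 0 without S2-1, E2-1 and E2-2, and ranged from 0 to 24 with 1 embryo left out (24 without S2-4). Of 54 tests of shares, 0 passed with thinning and 7 without it. With 1 embryo left out, shares and differences between classes had 0 to 0 tests that passed. None of the 9 called values of members changed sign under these settings. Among values that were not called, the share of Ctnnb1 in IPC turned without thinning (from 6.63 to -1.42 points). The directions in batch 1 and batch 2 were opposite in 67 of the 164 tested pairs of a member and a cluster with both batches, and in 26 of 50 pairs of a member and a class or all nuclei, among them Lef1 over all nuclei (0.36 and -0.45) and Tcf7l1 in IPC (0.34 and -0.34). Over all genes, the 1721 calls in clusters became 5651 with DESeq2, 6457 with voom, 10729 without the filter, 911 with batch as a covariate, 2112 per dam, 644 after thinning, 50 in batch 2 alone, 19059 without S2-4 and 18 without S2-1, E2-1 and E2-2. The number of tests differed too, with 217253 in the main fits, 292856 per dam, 519300 without the filter and 116745 after thinning. The causes were not tested. Embryos could not be paired across treatments, because their numbers count littermates of a dam. Litters of both treatments shared each batch, and the fits with batch as a covariate used this. Depth limits Tcf7 most, with 342 UMIs in all nuclei.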
